A study of Mus musculus with 16 samples.

Results

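The 31 genes described here mark the cells of blood vessels and of the leptomeninges, the thin inner sheaths of the brain. They were chosen by name from the 20730 genes of the deposited tables, and all 31 were found in each of the 16 libraries. The 16 endothelial genes are Cldn5, Flt1, Pecam1, Cdh5, Tek, Tie1, Ly6c1, Ly6a, Slco1a4, Abcb1a, Esam, Egfl7, Kdr, Emcn, Itm2a and Ramp2. The 10 mural genes are Pdgfrb, Rgs5, Kcnj8, Abcc9, Higd1b, Acta2, Tagln, Myh11, Anpep and Notch3, and the 5 leptomeningeal genes are Dcn, Lum, Col1a1, Col1a2 and Col3a1.

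Endothelial cells line the vessels, and in the brain their tight junctions and transporters form the blood-brain barrier. Mural cells, which are pericytes on capillaries and smooth muscle cells on larger vessels, wrap around that lining. Fibroblasts of the leptomeninges and of the spaces around vessels make fibrillar collagens and small proteoglycans, and the endfeet of astrocytes cover the vessel wall from the tissue side.

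RNA was measured in the whole striatum of 8 adult C57BL/6N mice, all of which carried an AAV for RiboTag, a haemagglutinin-tagged Rpl22 placed in striatal astrocytes. In 4 mice (control 1 to 4) a second AAV encoded a control protein, and in the other 4 (PMCA 1 to 4) it encoded hPMCA2w/b, a human calcium pump of the plasma membrane that suppresses calcium signalling. Each mouse gave an input library, made from the cleared lysate of all cells, and an IP library, made from RNA precipitated with the tagged ribosomes, so that there were 4 groups of 4 libraries. Which promoter drove the viruses, what the control protein was, and the sex and exact age of the mice were not given in the sources used here.

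Inputs held 32.3 to 40.9 M reads and IP libraries 46.8 to 58.5 M. All 15 astrocyte markers were higher in IP than in input in both treatments, with a median log2 fold of 3.18 in control and 3.22 in PMCA mice. All 15 microglial markers were lower in IP, at a median of -5.49 and -4.30. Rpl22 itself, the tagged gene, was lower in PMCA than in control mice, with log2 folds of -1.69 ± 0.0894 (SE) in IP and -0.88 ± 0.0665 in input (adjusted p = 1.92e-05 and 0.000489). The IP library of PMCA 4 stood apart from those of PMCA 1 to 3, with a chi-square per degree of freedom over all genes of 84.6 to 104.4 against 8.9 to 24.1 among these 3. Pairs of control IP libraries gave 12.9 to 81.2.

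Regulatory sequence is shown for 3 members, the endothelial Flt1 and Tie1 and the contractile Acta2. RefSeq promoters of 300 bases (GRCm38.p6, from 250 bases before the start used for the promoter to 50 after it) were found for 19 of the 31 members. The 250 bases before that start are printed 5′ to 3′ for Flt1 (chr5:147726012-147726261, minus strand), Tie1 (chr4:118489850-118490099, minus strand) and Acta2 (chr19:34255374-34255623, minus strand). The annotated genes Flt1 and Acta2 begin further upstream, at 147726438 and 34255585. All printed bases of Flt1 and most of those of Acta2 thus lie inside the gene. Capitals mark AGGAAG or its reverse complement CTTCCT, the core bound by ETS factors, in Flt1 and Tie1, and CArG-like boxes, the element bound by serum response factor, in Acta2.
Flt1: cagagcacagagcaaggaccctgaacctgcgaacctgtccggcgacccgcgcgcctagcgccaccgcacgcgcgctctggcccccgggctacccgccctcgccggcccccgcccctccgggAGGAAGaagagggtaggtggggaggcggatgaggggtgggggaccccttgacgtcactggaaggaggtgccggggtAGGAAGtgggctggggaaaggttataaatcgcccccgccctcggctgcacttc
Tie1: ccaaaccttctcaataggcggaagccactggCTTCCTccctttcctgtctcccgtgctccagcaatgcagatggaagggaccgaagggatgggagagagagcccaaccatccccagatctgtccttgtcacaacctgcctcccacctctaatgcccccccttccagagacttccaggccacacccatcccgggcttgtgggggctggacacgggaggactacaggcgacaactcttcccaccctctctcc
Acta2: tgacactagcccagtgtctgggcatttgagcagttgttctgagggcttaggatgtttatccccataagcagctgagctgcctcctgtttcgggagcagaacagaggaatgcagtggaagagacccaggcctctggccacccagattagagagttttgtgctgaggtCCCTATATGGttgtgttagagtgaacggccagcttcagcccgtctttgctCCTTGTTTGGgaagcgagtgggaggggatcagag
The Flt1 window held 2 copies of AGGAAG and the Acta2 window 2 CArG-like boxes. Tie1 held 2 copies of AGGAAG, of which 1 lies after the start and is not printed.

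Searched on both strands over the 300 bases, AGGAAG occurred in 7 of 11 endothelial, 0 of 6 mural and 0 of 2 leptomeningeal promoters, against 35.4% of 32851 promoters in the table. The CArG-like box was taken as a pair of C and a pair of G around 6 bases of which at least 5 are A or T. It occurred in 6 of the 19 members and in 9.98% of all promoters. By class these were 4 of 11 endothelial, 1 of 6 mural (Acta2) and 1 of 2 leptomeningeal promoters, so the box was not particular to mural members. TTCNNNGAA occurred in 1 of 19 (8.3% of all) and GTGGGAA in 2 of 19 (6.38% of all). These motifs and members were picked with the expression values known, so the counts are descriptions.

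The first question was how much RNA of vascular and leptomeningeal cells came down with the astrocyte ribosomes. Most of these genes were far lower in IP than in input. In control mice 25 of 31 were lower and 4 were higher, where 38.4% of the 16072 genes tested were lower and 39.1% higher, and in PMCA mice 24 were lower and 5 higher, where 39.3% of 16345 genes were lower and 37.4% higher. The median log2 fold of the 31 genes was -2.49 in control and -2.74 in PMCA mice, beside medians of 0 and -0.04 over all genes. Without the authors' scaling factors the medians of all genes moved to -0.28 and -0.35, and with each library centred on its own median to -0.17 and -0.19, so small folds are read against those shifts. On total reads the calls over all genes split into 4493 higher and 8389 lower in control mice and 4294 and 8898 in PMCA mice. The centred values gave 5126 and 7470, and 5200 and 7602, against 6285 and 6172, and 6121 and 6430, as deposited. Between PMCA and control mice, fewer cells of a type and less RNA per cell cannot be told apart in bulk libraries.

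**Figure D1:**
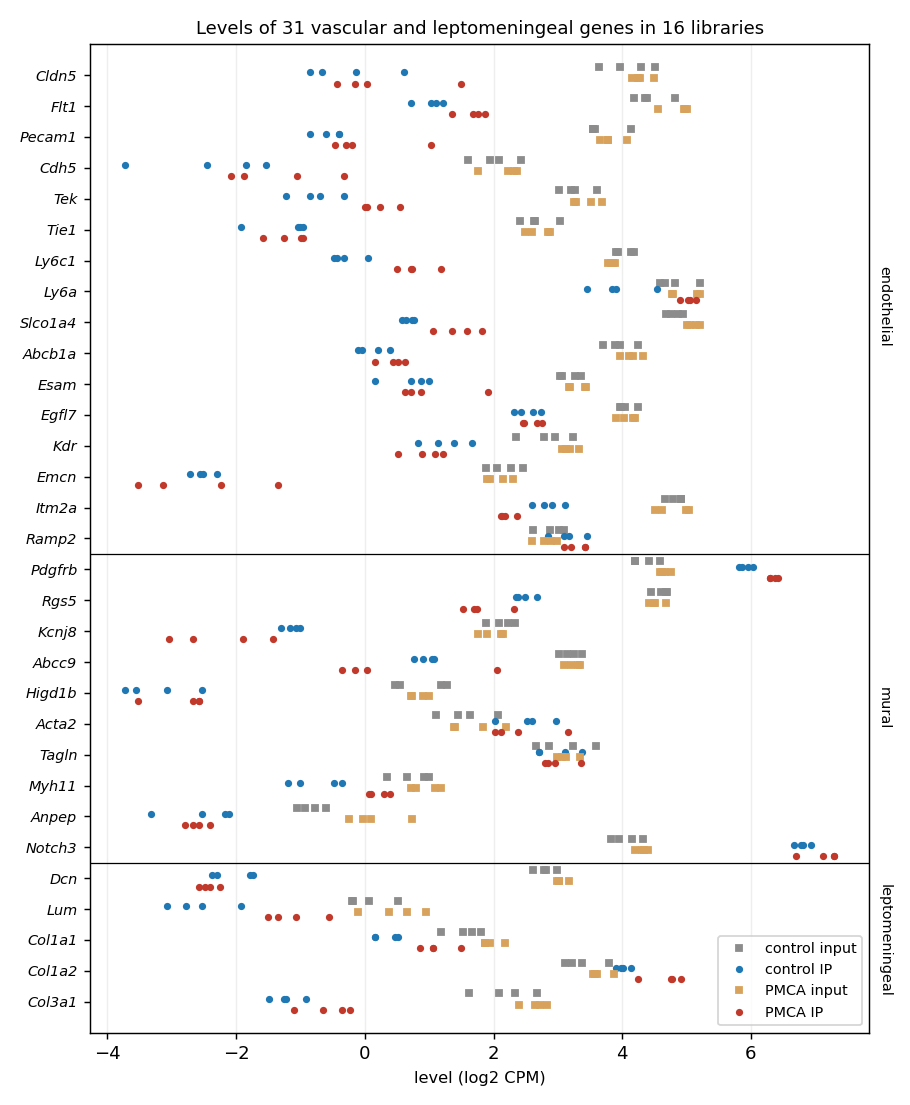
Level of each of the 31 genes (rows, by class) in log2 CPM on the horizontal axis, 1 point per library, for the 4 groups of 4 libraries. Most IP points lie to the left of the input points, while those of Pdgfrb, Notch3 and Col1a2 lie to the right.

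Endothelial junction genes were nearly removed from the IP. Cldn5, the main claudin of the blood-brain barrier, lay at 4.29, 3.96, 3.64 and 4.51 log2 CPM in the inputs of control 1 to 4 and at -0.13, -0.86, -0.67 and 0.61 in their IP libraries. In PMCA 1 to 4 it lay at 4.28, 4.24, 4.49 and 4.15 in input and at -0.43, 0.03, -0.15 and 1.5 in IP. The groups do not overlap in either treatment, and IP was 20.6-fold lower in control mice (log2 fold -4.36 ± 0.304 SE, adjusted p = 2.4e-07) and 16.6-fold lower in PMCA mice (-4.05 ± 0.348, adjusted p = 1.74e-06). The adhesion molecules Pecam1 (-4.26 and -3.80, here and below control mice first) and Cdh5, or VE-cadherin (-4.40 and -3.50), were depleted to a like degree, and Esam less so (-2.49 and -2.27). Cdh5 rested on 3 to 18 reads in the control IP libraries.

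Among the receptors, Flt1, a receptor of vascular endothelial growth factor, lay at 4.39, 4.35, 4.18 and 4.82 in control inputs and at 1.10, 1.21, 1.03 and 0.72 in control IP. It was 10.7-fold lower in control IP (-3.42 ± 0.153, adjusted p = 8.28e-09) and 9.27-fold lower in PMCA IP (-3.21 ± 0.133, adjusted p = 6.27e-09). The angiopoietin receptor Tek (-4.05 and -3.22) and its relative Tie1 (-3.91 and -3.89) were lower by more. Kdr, the main signalling receptor of that growth factor, was lower by less (-1.58 and -2.25). Ramp2, a small partner of the adrenomedullin receptor, did not follow the other receptors. It lay at 2.61, 3.09, 3.01 and 2.87 in control inputs and at 2.85, 3.17, 3.45 and 3.10 in control IP, where the log2 fold was 0.25 (adjusted p = 0.129, or 0.0292 with the mouse as a block). In PMCA mice the Ramp2 fold was 0.47 ± 0.111 (adjusted p = 0.00294), which was 0.16 on total reads and then missed the threshold (adjusted p = 0.202).

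Both transporters were strongly depleted. Slco1a4, an organic anion transporter of the barrier, was 17.6-fold lower in control IP (-4.13 ± 0.0957, adjusted p = 4e-10) and 12.5-fold lower in PMCA IP (-3.64 ± 0.145). Abcb1a, which encodes the efflux pump P-glycoprotein, was lower by 14.2-fold and 13.0-fold. Both belong to families with near-identical copies, and Abcb1a overlaps Rundc3b, so their read assignment is uncertain.

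The surface and secreted proteins ranged widely. Emcn, a sialomucin of capillaries and veins, had log2 folds of -4.69 and -4.63, and Itm2a, a small membrane protein, of -1.98 and -2.59. Egfl7, a secreted factor whose gene hosts Mir126a, had folds of -1.53 and -1.48. Ly6c1, a lipid-anchored surface protein, lay at 3.93, 4.18, 3.90 and 4.13 in control inputs and at -0.48, -0.44, -0.33 and 0.05 in control IP. Its PMCA values were 3.83, 3.86, 3.89 and 3.78 in input and 0.73, 0.50, 0.71 and 1.19 in IP. The fold was thus -4.34 ± 0.144 in control and -3.06 ± 0.14 in PMCA mice.

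Ly6a, of the same family, was much closer to its input level. Ly6a lay at 4.67, 4.82, 4.58 and 5.20 in control inputs and at 3.45, 3.91, 3.84 and 4.54 in control IP, and was lower in IP there (-0.88 ± 0.207, adjusted p = 0.00245). In PMCA mice it lay at 4.77, 4.79, 5.16 and 5.20 in input and at 5.02, 4.89, 5.05 and 5.14 in IP, which overlap (0.04, adjusted p = 0.73). Without the authors' scaling factors that PMCA value was -0.26 and passed the threshold (adjusted p = 0.0462). Reads shared by related Ly6 genes may have been split between Ly6a or Ly6c1 and their neighbours, which was not tested.

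**Figure D2:**
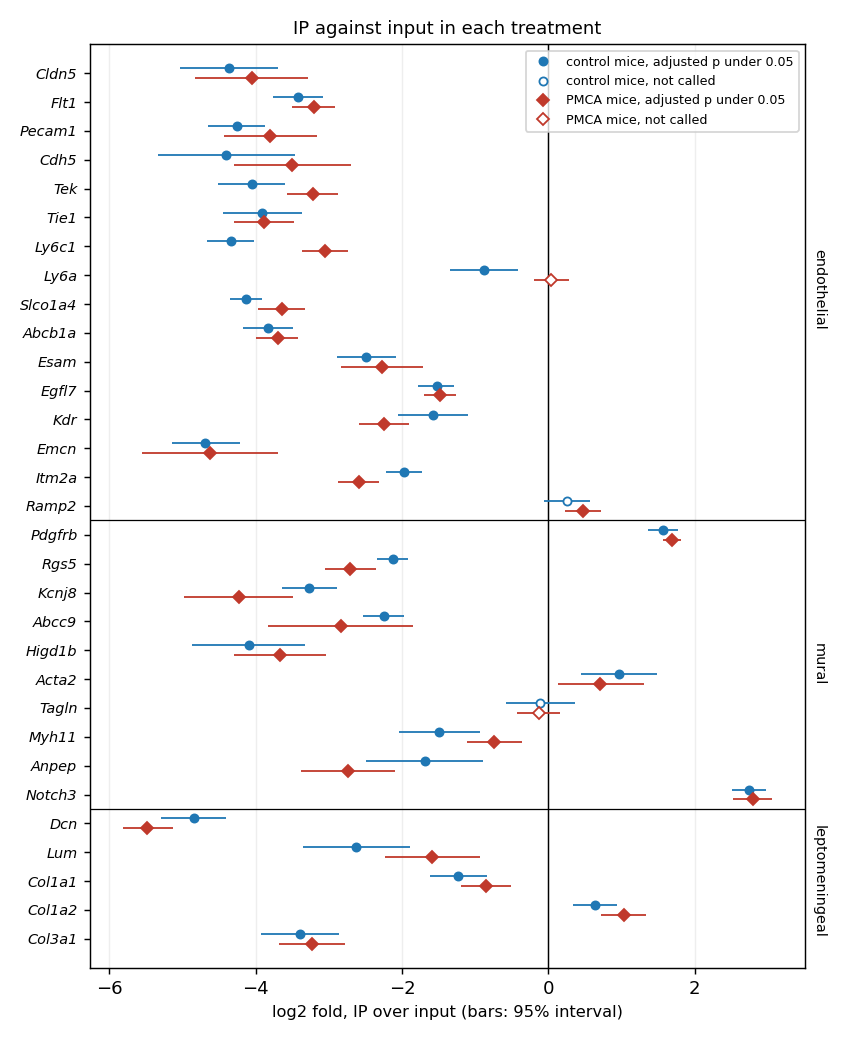
Log2 fold of IP over input for each gene (rows), in control mice (blue) and PMCA mice (red), with 95% intervals. Filled points passed an adjusted p of 0.05 and open points did not. Endothelial folds reach -4.69, while Pdgfrb, Notch3, Acta2, Col1a2 and the endothelial gene Ramp2 lie right of 0 in both treatments.

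The mural genes split by gene. Notch3, the Notch receptor of vascular smooth muscle, was higher in IP in all 8 mice. It lay at 4.32, 3.95, 3.82 and 4.15 in control inputs and at 6.67, 6.94, 6.81 and 6.78 in control IP, and the PMCA values were 4.33, 4.40, 4.31 and 4.19 in input and 7.29, 7.29, 7.12 and 6.70 in IP. IP was 6.69-fold higher in control (log2 fold 2.74 ± 0.103, adjusted p = 2.67e-09) and 6.92-fold higher in PMCA mice (2.79 ± 0.12, adjusted p = 8.12e-09). Pdgfrb, the receptor through which endothelium holds pericytes to the vessel, was 2.96-fold higher in control IP (1.57 ± 0.0935) and 3.23-fold higher in PMCA IP (1.69 ± 0.0553). Its control values ran from 4.19 to 4.59 in input and from 5.82 to 6.03 in IP.

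Other pericyte genes were depleted. Rgs5, a regulator of G-protein signalling, had log2 folds of -2.13 and -2.71. Kcnj8 and Abcc9 are neighbours on chromosome 6 and encode the pore and the sulphonylurea receptor of a vascular ATP-sensitive potassium channel. Kcnj8 had folds of -3.27 and -4.23 and Abcc9 of -2.25 and -2.84. The aminopeptidase gene Anpep (-1.69 and -2.74) and Higd1b (-4.09 and -3.67) were also lower, on few IP reads (4 to 12 and 3 to 8 in control mice).

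The contractile genes did not move together, and among them Tagln was closest to its input level. Acta2, smooth muscle actin, lay at 2.07, 1.63, 1.10 and 1.45 in control inputs and at 2.59, 2.52, 2.97 and 2.03 in control IP, which overlap (0.97 ± 0.231, adjusted p = 0.00276). In PMCA mice the Acta2 fold was 0.71 ± 0.264 (adjusted p = 0.03), and that call was lost without PMCA 3 (0.62, adjusted p = 0.124), on total reads (0.41) and with centred libraries (0.57). Tagln, or transgelin, was -0.11 and -0.13 and passed the threshold in neither treatment, but without PMCA 4 it was -0.30 (adjusted p = 0.0246) and on total reads -0.44 (adjusted p = 0.00995) in PMCA mice. Myh11, the smooth muscle myosin heavy chain, was lower in IP (-1.49 and -0.74).

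Leptomeningeal genes also split. Decorin (Dcn), a proteoglycan that binds collagen, had the largest depletion of all 31 genes. It lay at 2.82, 2.61, 2.79 and 2.99 in control inputs and at -2.30, -1.74, -1.79 and -2.38 in control IP, where 8 to 15 reads were counted, and was 28.9-fold lower (-4.85 ± 0.204, adjusted p = 5.46e-09). In PMCA mice Dcn was 44.6-fold lower. The related Lum was also lower (-2.63 and -1.59), as were Col3a1 (-3.39 and -3.23) and Col1a1 (-1.23 and -0.85). Col1a2 went the other way, with 3.37, 3.22, 3.11 and 3.79 in control inputs and 4.01, 3.98, 3.90 and 4.13 in control IP (0.63 ± 0.133, adjusted p = 0.00118), and 1.03 ± 0.138 in PMCA mice. The products of Col1a1 and Col1a2 form 1 collagen, yet their folds differed in sign in both treatments.

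The summed levels of a class can run against the folds of most of its genes, since a few genes hold most of the reads. The endothelial genes held 209 to 275 CPM in control inputs and 47.4 to 58.2 CPM in control IP. The mural genes held 83.4 to 102 CPM in control inputs and 183 to 211 CPM in control IP, although 6 of the 10 were lower in IP and the median log2 fold was -1.59, because Notch3 and Pdgfrb made up most of the IP sum. Leptomeningeal sums were 22.6 to 33.0 and 17.3 to 19.5 CPM in control mice, where Col1a2 made up most of the IP sum of a class whose median log2 fold was -2.63. In PMCA mice they were 30.2 to 35.8 CPM in input and 22.0 to 33.7 CPM in IP, which overlap. No member was at 0 reads in any library.

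Other vascular genes, listed by pathway, also went in both directions. Over all genes tested, 39.1% were higher and 38.4% lower in control mice, and 37.4% and 39.3% in PMCA mice. A list that splits near these shares does not stand out from all genes. Of 28 genes of endothelial identity and regulation, 27 were tested and 21 were lower and 6 higher in IP in control mice, with a median log2 fold of -2.67. Among them were the transcription factors Sox17 (-4.89) and Sox18 (-4.48). Of 19 barrier and transport genes 8 were higher and 6 lower in both treatments (median 0.15 in control and -0.04 in PMCA mice). The amino acid transporter Slc38a5 was at -5.23 in control mice. Of 31 tested genes for angiogenic ligands and receptors 14 were higher and 14 lower in control mice, and 17 and 12 in PMCA mice. In control mice Notch1 was at 3.0 and Wnt7b, a ligand that sustains the barrier, at 2.55. Among 30 pericyte and smooth muscle genes 10 were higher and 16 lower in control mice, with the forkhead factor Foxf2 at -3.89. In PMCA mice 11 were higher and 18 lower. Of 38 fibroblast genes 18 were higher and 15 lower in control mice (median 0.26), with the transporter Slc6a13 at -6.26, but in PMCA mice 15 of 41 were higher and 19 lower (median -0.26). In the vascular basement membrane 8 of 15 genes were higher and 5 lower in control mice, with the laminin chains Lamb2 at 2.82 and Lamc3 at -2.56. In PMCA mice 8 were higher and 6 lower.

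The main comparison asked how the calcium pump changed these genes in the IP. Of the 31, 27 passed the filter on low reads, and Emcn, Higd1b, Anpep and Dcn did not. Relative to control IP, 10 members were higher in PMCA IP and 2 were lower, where 9.54% of the 15748 genes tested were higher and 10.1% lower. The median log2 fold of the 27 was 0.43, against -0.01 over all genes, and it was 0.50 for 15 endothelial, -0.05 for 8 mural and 0.73 for 4 leptomeningeal genes. The fold was positive in 21 of the 27 and in 48.1% of all genes. Centring the libraries on their medians split the calls over all genes into 1710 higher and 1164 lower, against 1503 and 1585 as deposited, and left 10 members higher and 2 lower.

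**Figure D3:**
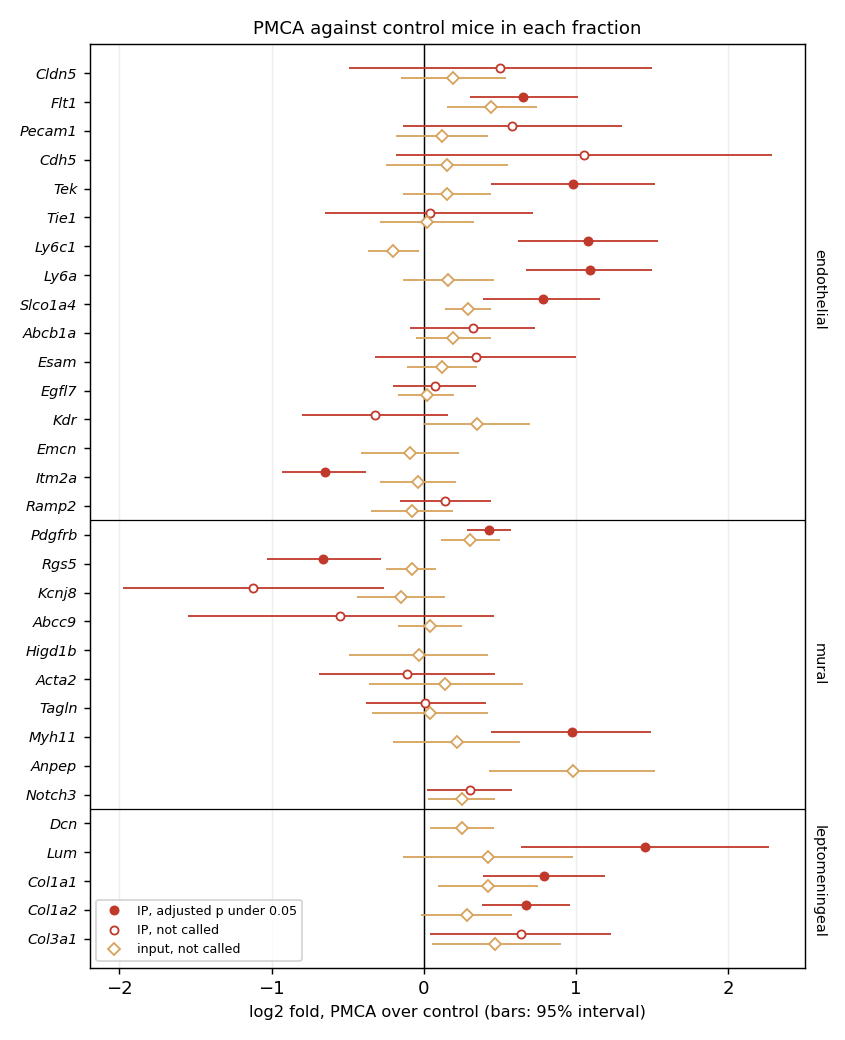
Log2 fold of PMCA over control mice for each gene (rows) in IP (red) and in input (tan), with 95% intervals. Filled points passed an adjusted p of 0.05. In IP 10 genes are filled right of 0 and 2, Itm2a and Rgs5, left of 0, while no input point is filled, and 4 genes have no IP point because they did not pass the filter.

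Among endothelial surface genes, Ly6a and Ly6c1 rose. Ly6a went from 3.45, 3.91, 3.84 and 4.54 in control IP to 5.02, 4.89, 5.05 and 5.14 in PMCA IP, and every PMCA value lay above every control value. It was 2.12-fold higher (log2 fold 1.09 ± 0.187, adjusted p = 0.00538). Ly6c1 was likewise higher in all 4 PMCA libraries, by 2.12-fold (1.08 ± 0.205, adjusted p = 0.00764), at 35 to 44 reads in control and 61 to 112 in PMCA IP. Itm2a went the other way, from 3.11, 2.78, 2.60 and 2.91 to 2.11, 2.36, 2.13 and 2.18 (-0.65 ± 0.124, adjusted p = 0.00774), without overlap.

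The receptors moved unevenly. Tek lay at -0.70, -0.32, -0.86 and -1.23 in control IP and at 0.04, 0.24, 0.54 and 0.00 in PMCA IP (0.98 ± 0.242, adjusted p = 0.0207). Flt1 lay at 1.68, 1.36, 1.76 and 1.87 in PMCA IP, above all control values (0.65 ± 0.159, adjusted p = 0.0197). The Flt1 call was lost without PMCA 3 (0.62, adjusted p = 0.0575) and with the animal number set as a block (0.51, adjusted p = 0.112), which splits the mice into lower and higher numbers by the source names. The higher set then holds PMCA 3 and PMCA 4 and no control. With that block the fold therefore compares only PMCA 1 and PMCA 2 with the 4 controls. The Tek call was lost without PMCA 2 (0.97, adjusted p = 0.0521), PMCA 3 (0.87, 0.0641) or control 3 (0.95, 0.0508), and with that block (0.91, 0.0907). Kdr had a fold of -0.32, Tie1 of 0.04 and Ramp2 of 0.14, and none passed the threshold (adjusted p = 0.316, 0.947 and 0.489).

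Of the transporters Slco1a4 rose, from 0.73, 0.64, 0.58 and 0.76 in control IP to 1.06, 1.58, 1.82 and 1.35 in PMCA IP (0.78 ± 0.173, adjusted p = 0.0145), and the groups do not overlap. With the source-name number set as a block the Slco1a4 call was lost (0.64, adjusted p = 0.0816). Abcb1a had a fold of 0.32 with an interval from -0.09 to 0.73 (adjusted p = 0.246). Junction genes did not pass: Cldn5 had a fold of 0.50 (interval -0.49 to 1.5), Pecam1 0.58 (-0.14 to 1.30), Cdh5 1.05 (-0.18 to 2.29) and Esam 0.34 (-0.32 to 1.0). The IP of PMCA 4 held the highest PMCA value of all 4 junction genes. Egfl7 had a fold of 0.07 (interval -0.20 to 0.34).

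Mural genes moved in both directions. Pdgfrb went from 5.86, 6.03, 5.95 and 5.82 in control IP to 6.37, 6.42, 6.29 and 6.29 in PMCA IP, a rise of 1.35-fold (0.43 ± 0.0645, adjusted p = 0.00358). Myh11 went from -1.19, -0.48, -1.01 and -0.36 to 0.29, 0.06, 0.39 and 0.09 (0.97 ± 0.236, adjusted p = 0.02). In both genes every PMCA value lay above every control value, but the Myh11 call was lost without PMCA 1 (0.94, adjusted p = 0.0517), PMCA 3 (0.91, 0.0597) or control 3 (0.88, 0.0525), and with the source-name set as a block (0.94, 0.0811). Acta2 and Tagln had folds of -0.11 and 0.01 (intervals -0.69 to 0.47 and -0.38 to 0.41).

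Among the other pericyte genes, Rgs5 fell and the rest did not pass or were not tested. Rgs5 went from 2.67, 2.35, 2.49 and 2.38 to 1.74, 1.69, 1.52 and 2.32 (-0.66 ± 0.17, adjusted p = 0.0248). That call was lost when control 1, 2 or 3 or PMCA 1, 2 or 3 was left out, with folds from -0.56 to -0.70 and adjusted p from 0.0503 to 0.0689, with the source-name set as a block (-0.76, 0.0501) and with no filter on low reads (-0.66, 0.0578). Kcnj8 lay at -1.0, -1.17, -1.07 and -1.31 in control IP and at -2.67, -3.04, -1.42 and -1.89 in PMCA IP. The Kcnj8 groups do not overlap, but the fold of -1.12 ± 0.386 missed the threshold (adjusted p = 0.0673) at 17 to 25 reads in control and 5 to 18 in PMCA IP. It passed without PMCA 3 (-1.40, adjusted p = 0.0451), with the source-name or title set as a block (-1.72, 0.0223, and -1.27, 0.0424) and in 1 fit over 16 libraries (-1.12, 0.00544). Its partner Abcc9 lay at 1.08, 1.04, 0.90 and 0.76 in control IP and at -0.35, 0.03, -0.15 and 2.06 in PMCA IP. With all 4 mice the Abcc9 fold was -0.55 ± 0.453 (adjusted p = 0.425), and without PMCA 4 it was -1.10 (adjusted p = 0.004). Notch3 had a fold of 0.30 (adjusted p = 0.119), but passed without PMCA 4 (0.43, adjusted p = 0.00517) and with the source-name set as a block (0.49, 0.0337).

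Of the 4 leptomeningeal genes tested, Col1a2, Col1a1 and Lum rose. Col1a2 went from 4.01, 3.98, 3.90 and 4.13 to 4.76, 4.78, 4.92 and 4.25 (0.67 ± 0.131, adjusted p = 0.00854), and Col1a1 from 0.15, 0.16, 0.51 and 0.47 to 1.49, 1.06, 1.06 and 0.85 (0.79 ± 0.18, adjusted p = 0.0158). Lum went from -1.93, -2.53, -3.07 and -2.78 to -1.5, -0.56, -1.07 and -1.35 (1.45 ± 0.365, adjusted p = 0.0223), at 6 to 13 reads in control and 16 to 29 in PMCA IP. In these 3 genes the groups do not overlap. The Lum call was lost without PMCA 2 (1.27, adjusted p = 0.0679), PMCA 3 (1.44, 0.0587), control 2 (1.47, 0.0513) or control 3 (1.29, 0.0545), and with the source-name set as a block (1.54, 0.0682). Col3a1 had a fold of 0.64 with overlapping groups (adjusted p = 0.119, or 0.0429 in 1 fit over 16 libraries).

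Of the 12 calls in IP, 7 held when each mouse was left out in turn (Ly6c1, Ly6a, Slco1a4, Itm2a, Pdgfrb, Col1a1 and Col1a2). With the source-name set as a block, 6 of the 12 calls were lost (Flt1, Tek, Slco1a4, Rgs5, Myh11 and Lum) and Kcnj8 and Notch3 were gained. As the higher set by source name holds no control, the folds with that block rest on PMCA 1 and PMCA 2 against the 4 controls. All 12 genes had the same sign within both sets by the numbers in the titles, where the higher set holds only 1 control mouse. The groups of these 12 genes do not overlap, so any split of the mice gives that sign, and it adds no support. Without PMCA 4 there were 14 calls, 11 higher and 3 lower, where 1788 genes in all were higher and 1818 lower.

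**Figure D4:**
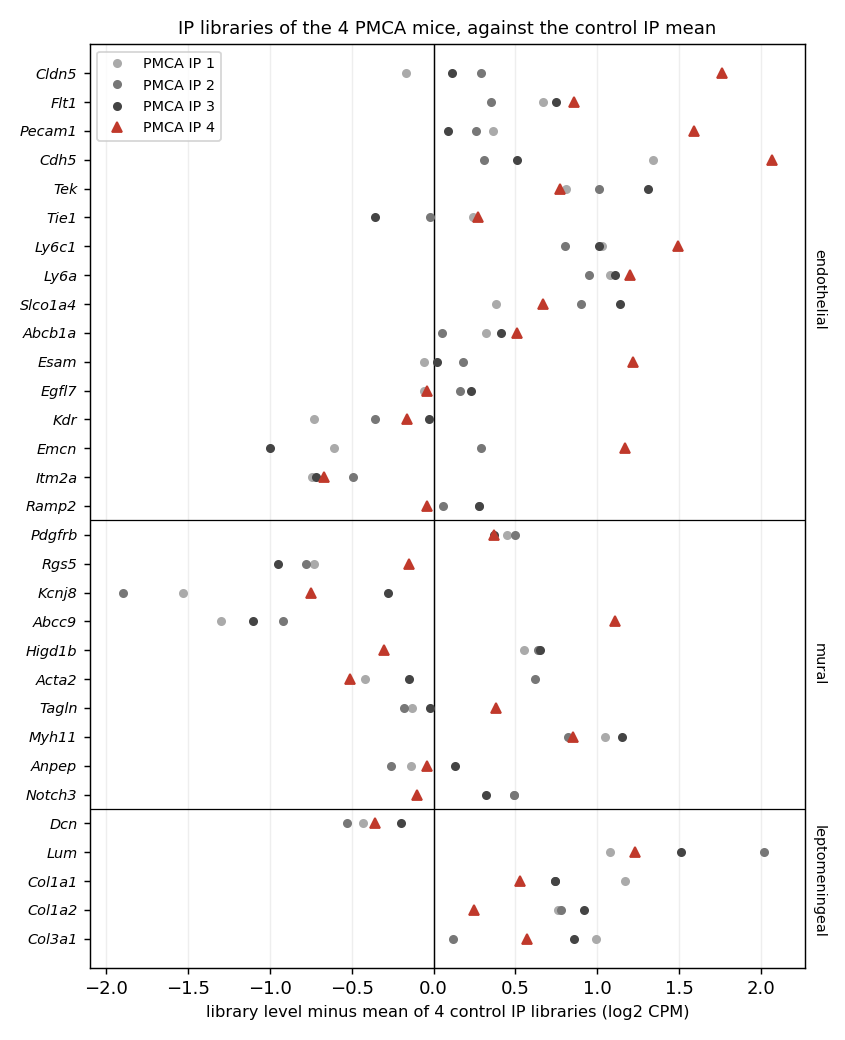
IP level of each gene (rows) in each PMCA mouse minus the mean of the 4 control IP libraries, in log2 CPM, 1 point per mouse with PMCA 4 as red triangles. PMCA 4 stands far right of the other 3 in Cldn5, Pecam1, Esam and Abcc9.

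The IP of PMCA 4 held more RNA of part of the endothelial genes than the other 3 PMCA IP libraries. It was the highest of the 4 in 10 of 16 endothelial members. The share of all genes highest in this library was not counted, and it also stood apart over all genes, as given above. In Cldn5 it lay 1.68 above the mean of PMCA 1 to 3 on the log2 scale, in Emcn 1.61, in Pecam1 and Cdh5 1.35 and in Esam 1.17. It was the highest in 3 of 10 mural members, and lay 2.22 above in Abcc9 and 0.67 above in Rgs5. In Higd1b, Notch3 and Acta2 its difference from that mean was -0.92, -0.54 and -0.53. In Tek, Slco1a4, Itm2a, Egfl7, Kdr and Ramp2 it was not the highest, and it was the highest in 0 of 5 leptomeningeal genes. Its summed microglial markers were also the highest, at 145 CPM against 90.2 to 99.8 in PMCA 1 to 3.

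Markers of other cells moved in the same comparison. Of 15 microglial markers 8 were higher in PMCA IP and 0 lower (median log2 fold 0.89), with summed levels of 69.8 to 88.9 CPM in control and 90.2 to 145 CPM in PMCA IP and no marker at 0 reads. All 7 nuclear noncoding RNAs were higher (median 1.15, sums 1510 to 2260 against 3230 to 5690 CPM), and both tested blood markers were higher (sums 2.11 to 2.57 against 5.75 to 8.82 CPM, with the haemoglobin genes Hba-a2 and Hbb-bs at 0 reads in all 8 IP libraries). Of 14 striatal neuron markers 4 were lower and 0 higher, of 15 astrocyte markers 4 were higher and 0 lower, and of 10 oligodendrocyte markers none was called. Summed endothelial members went from 47.4 to 58.2 CPM in control IP to 66.0 to 77.3 CPM in PMCA IP. Mural members went from 183 to 211 to 207 to 263 CPM, and leptomeningeal members from 17.3 to 19.5 to 22.0 to 33.7 CPM. These sums follow a few genes and do not show a rise across a class. Ly6a, the highest endothelial member in IP, went from a mean of 3.94 to 5.02 log2 CPM, while 9 of 15 tested endothelial genes were not called. Notch3 and Pdgfrb made up most of the mural sums, and Col1a2 most of the leptomeningeal sums. Rpl22, the tagged protein's own gene, was lower in PMCA IP as given above. The part of these shifts in the changes of the vascular genes was not tested.

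Beyond the members, vascular genes of the pathway lists changed in both directions in PMCA IP, where 9.54% of all genes were higher and 10.1% lower. Of 18 barrier genes tested 1 rose (Lsr, a protein of tricellular junctions, 0.62) and 0 fell. Of 21 identity genes 3 rose and 1 fell, and the transcription factors Lef1 (0.63) and Sox7 (0.58) and the phosphatase Ptprb (0.56) had the largest folds. Of 31 angiogenic genes 8 rose and 2 fell, among them Flt4, a receptor of lymphatic and some blood endothelium (-0.99), Ramp3 (-0.60) and Reck, a partner of the Wnt7 ligands at the barrier (0.59). Pericyte and smooth muscle genes gave 3 higher and 3 lower of 27, led by Vtn, the vitronectin gene (-1.64), Pln, a regulator of calcium uptake (1.0), and Heyl, a Notch target (0.60). Of 34 fibroblast genes 6 rose and 1 fell, with Col15a1 at 1.62, the growth factor Igf2 at -1.56 and the collagen crosslinker Loxl1 at 1.28. Of 15 basement membrane genes 4 rose and 1 fell, with Lama3 at 0.67, Lamb1 at -0.51 and Nid2 at 0.33.

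In the inputs, no member passed the threshold between PMCA and control mice, where 0.362% of 16306 genes were higher and 0.0797% lower by limma. At an unadjusted p of 0.05, 9 members were higher and 1 lower, beside 19.3% of all genes. The fold was positive in 24 of 31 members and in 48.3% of all genes, with a median of 0.15 against -0.01. Slco1a4 lay at 4.76, 4.86, 4.68 and 4.95 in control and at 5.05, 5.20, 5.15 and 5.0 in PMCA inputs (0.29 ± 0.0688, adjusted p = 0.087). Anpep lay at -0.78, -0.93, -1.05 and -0.60 and at 0.73, -0.03, -0.24 and 0.09, with the largest input fold of the 31 (0.98 ± 0.25, adjusted p = 0.101). In both genes the groups do not overlap. Of the listed genes, Notch1 (0.52, adjusted p = 0.0479) and the fibronectin gene Fn1 (0.95, adjusted p = 0.0403) were higher in PMCA inputs and Igfbp2 lower (-0.45, adjusted p = 0.0403).

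**Figure D5:**
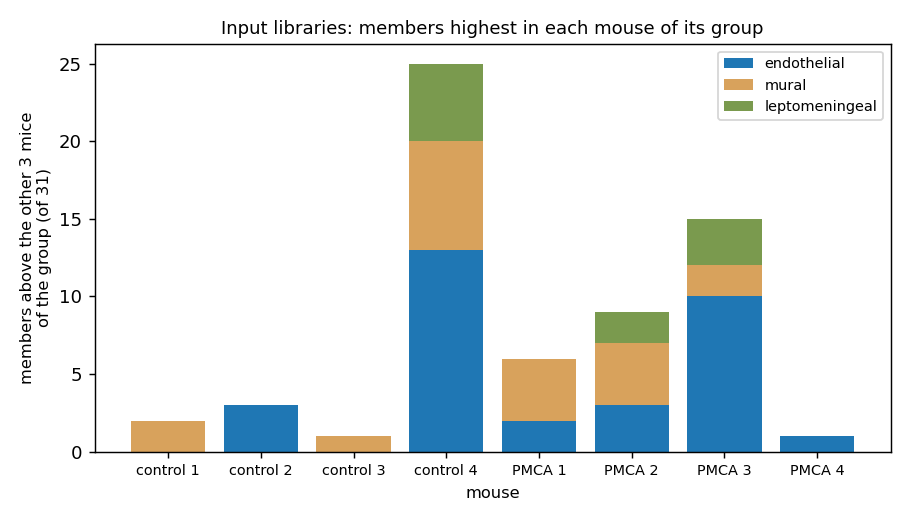
Number of the 31 genes whose input level in a mouse exceeded that of the other 3 mice of its group (vertical axis), for each of the 8 mice and by class. Control 4 is highest in 25 genes and PMCA 3 in 15.

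One control mouse stood apart in the inputs, where the share of all genes highest in each mouse was not counted. Over all genes, pairs of its input with those of the other 3 controls gave a chi-square per degree of freedom of 16.6 to 22.1. Pairs among these 3 gave 7.2 to 9.4. Control 4 lay above the other 3 controls in 25 of 31 members (13 of 16 endothelial, 7 of 10 mural and 5 of 5 leptomeningeal), by a median of 0.35 on the log2 scale over their mean. Among PMCA mice, PMCA 3 was the highest in 15 of 31 members, by a median of 0.18. These 2 mice also had Xist, an RNA of female cells, at 6.62 and 7.22 log2 CPM in input, where the other 6 mice lay between -2.55 and -0.40. The part of that difference in the vascular genes was not tested. Without control 4, 7 members were higher in PMCA inputs (Flt1 0.57, Slco1a4 0.33, Kdr 0.49, Pdgfrb 0.38, Anpep 1.05, Col1a2 0.42 and Col3a1 0.64, adjusted p from 0.00814 to 0.0444), where 936 genes in all were higher and 416 lower. That setting leaves no control mouse with high Xist while PMCA 3 stays in, so treatment is partly confounded with the Xist difference there.

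Whether the pump effect differed between IP and input was tested over all 16 libraries. Ly6c1 alone among the 31 passed the threshold, where 0.972% of 16673 genes were higher and 1.06% lower. The PMCA effect on Ly6c1 was 1.08 in IP and -0.20 in input, a difference of 1.28 ± 0.202 (adjusted p = 0.00752), and it was 1.19 without control 2 (adjusted p = 0.056). On total reads the calls over all genes split into 120 higher and 236 lower, against 162 and 177 as deposited. At an unadjusted p of 0.05, 6 members were higher and 6 lower, beside 16.3% of all genes. Ly6a had a difference of 0.92 ± 0.256 (adjusted p = 0.0763), which passed with the mouse as a block (adjusted p = 0.00495) and without control 4 (1.0, adjusted p = 0.0229). Without PMCA 4, Itm2a (-0.70, adjusted p = 0.0492), Rgs5 (-0.78, 0.0134) and Abcc9 (-1.12, 0.0102) passed as well. Of the other members that rose in IP, Tek (0.83, interval 0.27 to 1.39), Slco1a4 (0.49, 0.12 to 0.86), Myh11 (0.75, 0.12 to 1.38) and Lum (1.03, 0.12 to 1.95) had unadjusted intervals above 0 and missed the threshold (adjusted p from 0.122 to 0.245). Those of Pdgfrb (0.12, -0.11 to 0.36), Flt1 (0.21, -0.24 to 0.66), Col1a1 (0.38, -0.12 to 0.87) and Col1a2 (0.39, -0.04 to 0.82) included 0. This comparison and those above share libraries, so their values are set side by side and not as independent support.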

How the data were processed

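Stranded TruSeq libraries after RiboZero Gold treatment were sequenced, per the labels' protocols. Per the submitters' processing notes, STAR, HTSeq, edgeR and limma were used with the build mm10; versions, roles and use of strand in counting were not given in the sources used here. Values deposited by the authors are log2 CPM, with a shared lowest value of -7.47. Undoing the log2 and a prior count of 0.25 gave whole reads for every gene (tolerance 0.001). The authors' scaling factors, effective over total size, were 1.099 to 1.122 in inputs and 0.891 to 0.918 in IP.

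Every test was a limma model (3.58.1, R 4.3.3; empirical Bayes with a trend) of the deposited values, adjusted by Benjamini-Hochberg over all genes tested, threshold 0.05, two-sided. The first 4 comparisons used their own 8 libraries, the difference between fractions all 16. Genes needed 10 reads at median library size in 4 libraries, and 15 in all. The fit was also run on simulated reads, for PMCA against control in IP and in input only. Those reads held no mouse pairing and no library-wide shift, so that run does not cover either. Members and lists were chosen with earlier results of these data known. All members are named, and of the listed genes only those called with 1 of the 3 largest folds of their list in a comparison; Xist and the blood markers at 0 reads were chosen after their values were seen.

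Input and IP share a mouse, per the source names. Deviations from group means over 13237 genes correlated with r from 0.21 to 0.66 in 8 same-mouse pairs and from -0.47 to 0.18 in 24 others, so the mouse as a block was an alternative. Control 4 has different animal numbers in title and source name, and both were tried. By the source names the higher set holds no control mouse. Replicates correlated across genes with r from 0.978 to 0.985, and every pair differed beyond sampling noise (chi-square per degree of freedom 4.7 to 104.4).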

Additional observations from a re-analysis of the deposited data

Results flagged for a closer look

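In 5 of 124 gene groups of 4 libraries, 1 library lay far from the other 3. Chance gives about 1 in 20 such groups. Flt1 in input was 4.56 log2 CPM in PMCA 4, below 4.96 to 5.01 in the other PMCA mice. Pecam1 in input was 4.13 in control 4, above 3.54 to 3.57 in the other controls. Tie1 in IP was -1.93 in control 4, below -1.04 to -0.96. Abcc9 in IP was 2.06 in PMCA 4, above -0.35 to 0.03, and Higd1b in IP was -3.52 there, below -2.67 to -2.57, on 4 to 8 reads. Of these 5 cases 2 fall in the IP of PMCA 4 and 2 in the libraries of control 4.

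Ly6c1 showed a pump effect that differed between IP and input by 1.28 on the log2 scale, tested as an interaction over 16 libraries. That call was lost without control 2 (1.19, limma adjusted p = 0.056).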

How the results depend on the processing

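In control mice, the 29 genes called between IP and input passed in every alternative in which they were tested. In PMCA mice 27 of 29 did, the exceptions being Ramp2 and Acta2, and Ly6a changed sign on total reads (-0.26, adjusted p = 0.0462, against 0.04). For PMCA against control in IP, 6 of 12 calls passed in all alternatives (Ly6c1, Ly6a, Itm2a, Pdgfrb, Col1a1 and Col1a2), and with the animal number set of the source name as a block there were 8 calls, 6 of the 12 and Kcnj8 and Notch3. In inputs, 0 members became 2 with the number set of the title as a block (Slco1a4 and Anpep), and leaving out single mice gave 0 to 7. For the difference between fractions, 1 call became 2 with the replicate block (animal), and leaving out single mice gave 0 to 4. The block also brought Ramp2 in control mice past the threshold (0.25, adjusted p = 0.0292) and changed no other call. Leaving out single mice gave 29 to 29, 28 to 30 and 8 to 14 calls in the first 3 comparisons. Over all genes, calls for PMCA against control in IP numbered 3088, against 1699 with the source-name set as a block, 4691 with 1 fit over 16 libraries and 1702 to 3606 without single mice. In inputs there were 72, against 32 and 868 with the source-name and title sets as a block, 27 with no filter, 13 with no mean-variance trend, 47 with 1 fit and 4 to 1352 without single mice, and for the difference between fractions 339, against 23 to 436. A pseudocount of 1 shrinks folds of low genes, for example Lum in PMCA IP from 1.45 to 0.32, with the call kept. Cdh5, Tek, Tie1, Emcn, Kcnj8, Higd1b, Anpep, Dcn, Lum and Col3a1 had under 20 reads in some or all IP libraries, which limits their folds.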
